A study of Bos taurus with 129 samples.

Results

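The 10 genes described here, coding for immediate early transcription factors, were followed in whole blood of beef steers over 60 days. The members were the rows of the gene count table with the symbols FOS, FOSB, JUN, JUNB, ATF3, EGR1, EGR2, EGR3, NR4A1 and NR4A2, which made 10 of 32395 genes in the table. All 10 passed the filter on low counts, as did 18937 genes in all. Immediate early genes are transcribed quickly after a cell receives a signal, from factors that are already in the cell such as SRF and CREB, and their products then change the transcription of later genes. FOS and JUN proteins pair to form AP-1, EGR proteins bind DNA through zinc fingers, and NR4A proteins are orphan nuclear receptors whose activity follows largely from how much of them is made. In blood they are known from activated lymphocytes, monocytes and neutrophils.

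The study compared 3 ways of giving trace minerals to a larger group of newly purchased crossbred beef steers. The 26 followed here are a part of that group, bled into RNA-stabilising tubes on day 0 and again on days 13, 28, 45 and 60. INR steers (11) were fed copper, cobalt, manganese and zinc as sulfates, AAC steers (8) were fed the same elements complexed with amino acids, and COMBO steers (7) were fed the complexed form and also received an oral trace mineral drench before shipment, on day 0 and with any treatment for morbidity. Of the steers, 14 carried the disease label Yes, read here as treated for bovine respiratory disease at some time (BRD), and 12 the label No (healthy). The healthy steers were 4 AAC, 4 COMBO and 4 INR, and the BRD steers were 4 AAC, 3 COMBO and 7 INR. The labels do not give the day of illness, so BRD is a label of the animal and not of the library. All 26 had been hauled by trailer, received a viral vaccine and doramectin on day 0 and the vaccine again between days 13 and 28, and no group went without mineral supplement. Treatments were assigned by pen, and the healthy COMBO steers began in pen 5 and the BRD COMBO steers in pen 6. In COMBO the disease label and the first pen therefore cannot be told apart. The drench given with treatment for morbidity also goes with the BRD label in COMBO and cannot be told apart from it. In INR, 4 of the 7 BRD steers began in pen 7, which held no healthy steer sampled here, while pens 3 and 4 and the AAC pens 2 and 8 held both labels.

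The libraries, 70 from BRD and 59 from healthy steers (25 at day 13, where the library of AAC steer 48 failed to cluster and was removed by the authors) held from 31613545 to 61692136 counts each, with a median of 44268685. At that depth the 10 genes had median counts from 149 for FOSB to 7488 for JUNB, and the lowest count of any member in any library was 11, for FOSB. Levels are given as CPM, the count scaled to the size of its library, and are compared between libraries, not between genes, because gene length was not taken into account. The library of INR steer 50 at day 13 stood farthest from the median profile (rank correlation 0.968, against a median of 0.986 over all libraries), and the library of INR steer 40 at day 60 (0.972), which the study names for low RNA integrity, came next, followed by those of AAC steer 21 at days 0 and 13 (both 0.973). The libraries of steers 50 and 40 were left out in turn, and neither gave or removed a call on a member except on day 60 against day 45 and day 60 against day 0, as given below. Without steer 21 the members called were 4 from day 0 to 13, 0 from day 13 to 28, 6 from day 28 to 45 (NR4A2 and EGR1 lost), 1 from day 45 to 60 (ATF3) and 3 from day 0 to 60 (FOS, JUN and NR4A1). The blood cell markers that define the tissue were present throughout: the summed level of 6 T cell markers lay between 413 and 1620 CPM, of 6 B cell markers between 753 and 3980 CPM, and of 6 monocyte markers between 364 and 2900 CPM.

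All steers were sampled on the same 5 days, and the library numbers run in day order. Time in the study therefore cannot be told apart from the bleeding session or the order of the libraries. NR4A1 had the clearest course over time. Its level was lowest on day 0 in 24 of the 25 steers sampled on all 5 days, and its median rose from 8.33 CPM on day 0 to 15.8 CPM on day 13, 19.5 CPM on day 28 and 19.8 CPM on day 45, then stood at 15.1 CPM on day 60. The other 9 genes moved less: ATF3 and EGR2 had their lowest medians on day 28 (5.42 and 3.28 CPM) and their highest on day 45 (8.33 and 4.55 CPM), FOS and FOSB their highest on day 0 (32 and 4.39 CPM), and JUN its lowest on day 0 (89.8 CPM). EGR1, NR4A2 and JUNB kept their day medians within 7.62 to 9.08 CPM, 3.48 to 3.90 CPM and 163 to 187 CPM.

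**Figure D1:**
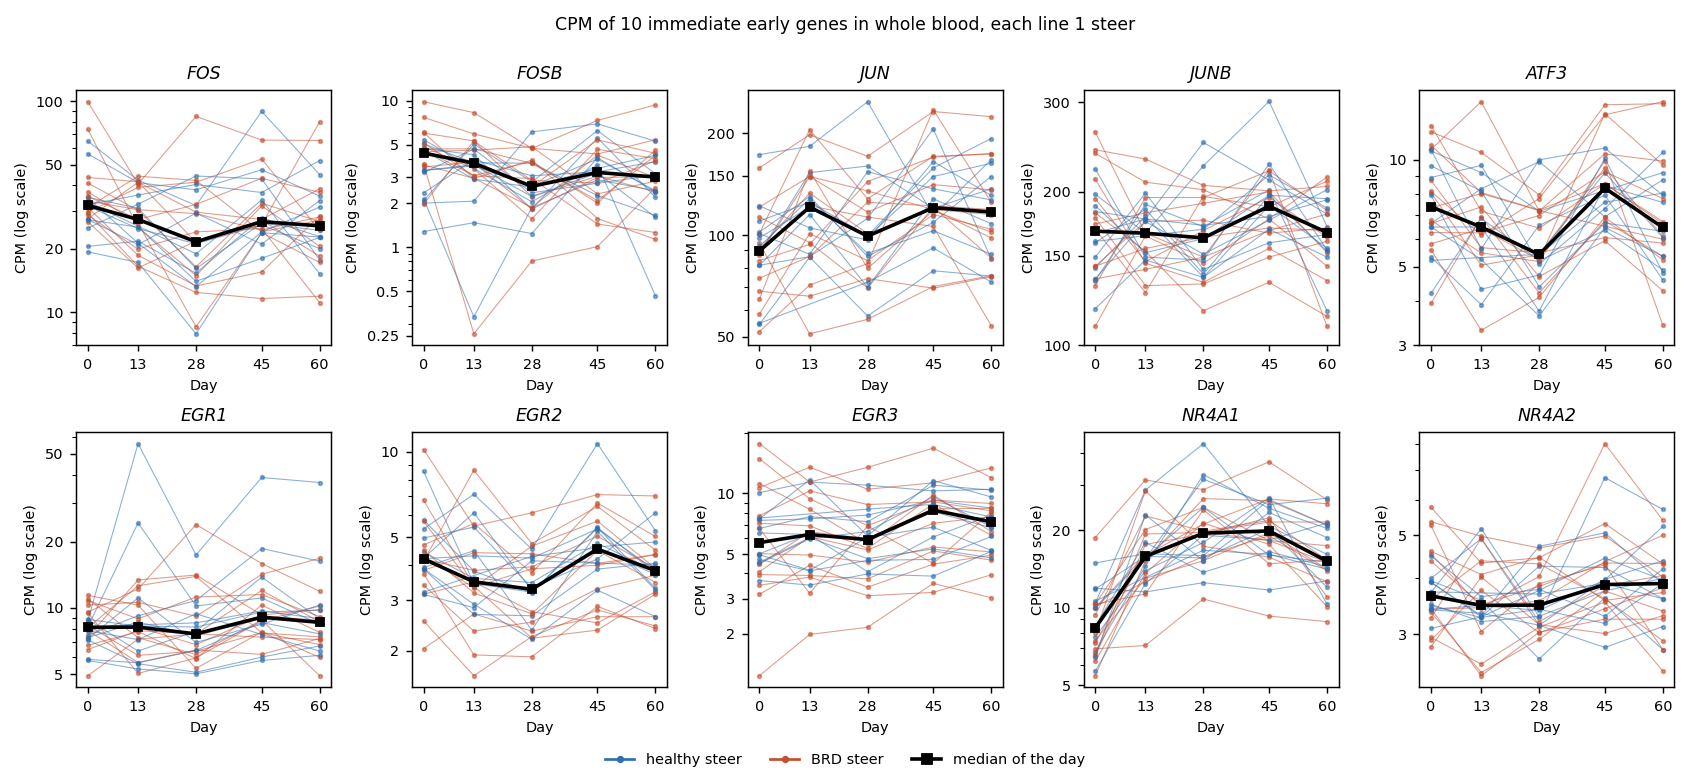
CPM on a log scale against day of sampling for the 10 genes, with 1 thin line for each of 26 steers (blue healthy, red BRD) and the day median as black squares. NR4A1 rises from a median of 8.33 CPM on day 0 to 19.8 CPM on day 45, the medians of ATF3 and EGR2 dip on day 28 and peak on day 45, and blue and red lines run through each other in every panel.

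Day changes were tested within steers, with the steer as a block and the 6 combinations of treatment and disease label weighted equally, and a gene was called when its Benjamini-Hochberg adjusted p in edgeR's quasi-likelihood test was below 0.10. From day 0 to day 13, NR4A1 and JUN rose and FOS and EGR2 fell, which is 2 members called higher and 2 lower of 10, in a comparison where 17.3% of all genes were called higher and 17.1% lower. From day 13 to day 28 edgeR called none of the 10 (1.04% of all genes were called). NR4A1 was the 1 member with an unadjusted p below 0.05 there, where 2429 of 18937 genes had one. DESeq2 called NR4A1 alone of the members and limma-voom called none of them. From day 28 to day 45, 8 of 10 rose, namely FOS, JUN, JUNB, EGR1, EGR2, EGR3, NR4A2 and ATF3, and none fell, where 13.4% of all genes were called higher and 27.7% in either direction. The median log2 change of the 10 genes was 0.33 in that comparison, against 0.00 for all genes tested.

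From day 45 to day 60, JUNB, EGR2, NR4A1 and ATF3 fell and no member rose (3.41% of all genes were called lower and 8.22% in either direction). Over the whole period, from day 0 to day 60, NR4A1, JUN and EGR3 rose and FOS, FOSB and EGR2 fell (15.6% of all genes higher and 15.1% lower). These counts rest on the replicate block: with the libraries taken as independent, edgeR called 1 member from day 0 to 13 (NR4A1), 3 from day 28 to 45 (JUNB, EGR2 and ATF3), 0 from day 45 to 60 and 2 from day 0 to 60 (JUN and NR4A1). The 4 calls from day 45 to 60 were also lost at an adjusted p below 0.05, so that they stand close to the threshold.

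**Figure D2:**
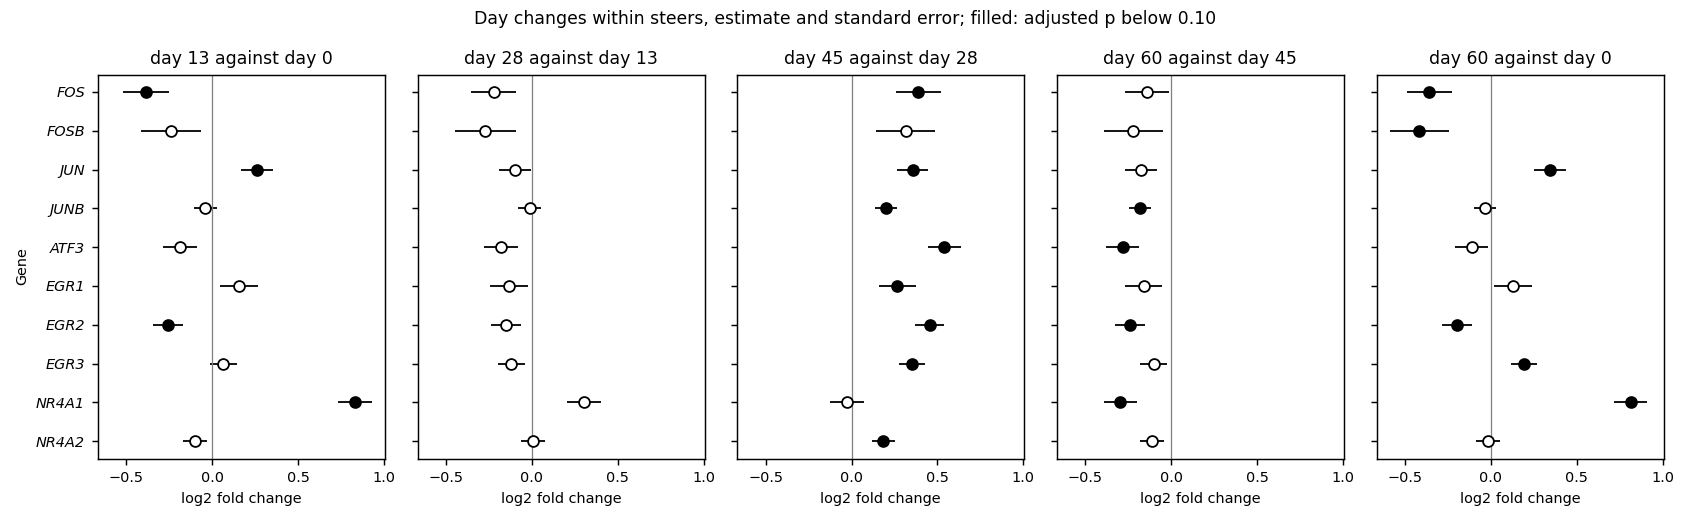
Log2 fold change within steers (points) with its standard error (bars) for the 10 genes in 5 comparisons of days, filled where the adjusted p was below 0.10. Filled points lie to the right of zero for 8 of 10 genes from day 28 to 45, and the NR4A1 points of 0.83 and 0.81 stand apart from day 0 to 13 and from day 0 to 60.

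NR4A1 codes for Nur77, an orphan nuclear receptor that lymphocytes make on antigen receptor signalling. Its CPM ranged from 5.44 to 18.7 on day 0 (median 8.33, n = 26), from 7.13 to 31.3 on day 13 (median 15.8, n = 25), from 10.8 to 43.3 on day 28, from 9.27 to 36.8 on day 45 and from 8.82 to 27 on day 60. The ranges of day 0 and the later days overlapped between steers, but within steers the level was higher on day 13 in 24 of 25 and on day 60 in 26 of 26. The log2 change was 0.83 ± 0.10 (SE) from day 0 to 13, a 1.78-fold rise with an adjusted p of 6.03e-10, and 0.81 ± 0.10 from day 0 to 60, with an adjusted p of 5.02e-10. These calls stood under every alternative run. From day 13 to 28 the change was 0.31 ± 0.10 with an adjusted p of 0.142, from day 28 to 45 it was -0.03 ± 0.10 with an adjusted p of 0.907, and from day 45 to 60 NR4A1 fell by 0.30 ± 0.10 on the log2 scale (adjusted p = 0.0585).

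The day 13 rise of NR4A1 was of like size under both disease labels (0.83 ± 0.14 in BRD and 0.83 ± 0.14 in healthy steers) and stood at 1.03 ± 0.18 in AAC, 0.65 ± 0.18 in COMBO and 0.81 ± 0.15 in INR. Healthy INR steer 10 stayed level, with 11.9, 11.5, 12.5, 11.7 and 12.7 CPM from day 0 to day 60. BRD COMBO steer 16 stayed low, with 6.92, 7.13, 10.8, 9.27 and 8.82 CPM, the lowest value of all steers on each of the 4 later days. NR4A2, which codes for the related receptor Nurr1, did not share the rise. Its CPM ran from 2.81 to 5.77 on day 0 and from 2.42 to 5.17 on day 13 with medians of 3.65 and 3.48, and its log2 change from day 0 to 13 was -0.10 ± 0.07 (adjusted p = 0.313). NR4A2 passed the test only from day 28 to 45, at 0.19 ± 0.07 (adjusted p = 0.0459), and that call was lost when steer 21, 42 or 54 was left out (adjusted p up to 0.159).

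Among the AP-1 genes, FOS and JUN changed in opposite directions after day 0. FOS codes for a protein that must pair with a JUN protein to bind DNA. Its CPM ran from 19.3 to 99.4 on day 0 (median 32) and from 16.2 to 44.1 on day 13 (median 27.5), and it was lower on day 13 in 19 of 25 steers. Its log2 change was -0.38 ± 0.13 (adjusted p = 0.0241), and it rose by 0.39 ± 0.13 from day 28 to 45 (adjusted p = 0.0250). JUN, which can also pair with itself, ran from 51.8 to 173 CPM on day 0 (median 89.8) and from 51 to 205 CPM on day 13, and was higher on day 13 in 20 of 25 steers. Its log2 change was 0.26 ± 0.09 from day 0 to 13 (adjusted p = 0.0305), 0.36 ± 0.09 from day 28 to 45 (adjusted p = 0.00323) and 0.34 ± 0.09 from day 0 to 60 (adjusted p = 0.00372).

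FOSB, a close relative of FOS, ran from 0.257 to 9.81 CPM, the highest ratio of highest to lowest library among the 10 (38.2), and its lowest library held 11 counts. Its coefficient of variation (48.2%) was below those of EGR1 (65.2%) and of FOS. It was lower on day 60 than on day 0 in 19 of 26 steers, by 0.42 ± 0.17 on the log2 scale (adjusted p = 0.0734, 0.0401 to 0.218 as each steer was left out), and its rise from day 28 to 45 (0.31 ± 0.17) had an adjusted p of 0.207. JUNB, which often restrains JUN, was the steadiest, with a coefficient of variation of 19% over the libraries. It rose by 0.20 ± 0.07 from day 28 to 45 in 21 of 26 steers (adjusted p = 0.0197) and fell by 0.18 ± 0.07 from day 45 to 60 (adjusted p = 0.0917). The second of these calls was lost when the library of steer 50 at day 13 was removed and when any 1 of 15 steers was left out.

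ATF3 codes for a stress-induced bZIP protein that joins AP-1 and CREB family dimers and is best known as a repressor. It had the largest rise of the 10 genes from day 28 to 45. Its CPM ran from 3.63 to 10 on day 28 (median 5.42) and from 5.92 to 14 on day 45 (median 8.33), and was higher on day 45 in 24 of 26 steers. The log2 change was 0.54 ± 0.10, a 1.45-fold rise with an adjusted p of 2.04e-05, and it held under every alternative. By day 60 the range was 3.42 to 14.6 CPM (median 6.45), a fall of 0.28 ± 0.10 (adjusted p = 0.0740), and the difference of day 60 from day 0 was -0.11 ± 0.10 (adjusted p = 0.441).

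The 3 EGR genes shared the rise from day 28 to 45 but differed in the rest of the course. EGR2, which is known from T cell anergy and macrophage identity, was higher on day 45 in 23 of 26 steers. Its CPM ran from 1.90 to 6.11 on day 28 (median 3.28) and from 2.36 to 10.7 on day 45 (median 4.55), a log2 change of 0.45 ± 0.09 with an adjusted p of 4.25e-05. EGR2 had fallen from day 0 to 13 (-0.26 ± 0.09, adjusted p = 0.0204, lower in 15 of 25 steers), fell again from day 45 to 60 (-0.24 ± 0.09, adjusted p = 0.0858), and ended 0.20 ± 0.09 below day 0 (adjusted p = 0.0836). The last 2 calls of EGR2 were lost without the library of steer 40 at day 60.

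EGR3, a relative of EGR2 that acts downstream of antigen receptors, was higher on day 45 than on day 28 in 23 of 26 steers (0.35 ± 0.08, adjusted p = 0.000424) and higher on day 60 than on day 0 in 22 of 26 (0.19 ± 0.08, adjusted p = 0.0589). The day 60 call on EGR3 was lost without steer 16, 21, 29 or 34 (adjusted p up to 0.147). EGR1, the most studied member of the family, ran from 4.92 to 11.4 CPM on day 0 with a median of 8.16 and from 5.77 to 39.1 CPM on day 45 with a median of 9.08. It passed the test only from day 28 to 45 (0.27 ± 0.11, adjusted p = 0.0689), and leaving out any 1 of 11 steers removed that call, with an adjusted p of up to 0.161.

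Other genes of the same network were counted from lists written with earlier results of these data known. Of 24 other immediate early and feedback genes tested, 16 rose and none fell from day 28 to 45, where 13.4% of all genes were called higher and 27.7% in either direction, and the median log2 change of the 24 was 0.30. The 4 of smallest p were ZFP36, which destabilises cytokine mRNA (0.37 ± 0.07), the small GTPase gene RHOB (0.47 ± 0.09), the NF-kappaB inhibitor gene NFKBIA (0.37 ± 0.08) and the stress phosphatase subunit gene PPP1R15A (0.18 ± 0.04). From day 0 to 13, 3 of these 24 rose and 11 fell (17.3% of all genes higher and 17.1% lower), with a median of -0.13. KLF10, a TGF-beta induced zinc finger gene (-0.75 ± 0.05), and SPRY2, a feedback inhibitor of receptor signalling (-0.57 ± 0.10), fell, while the phosphatase gene DUSP5 (0.58 ± 0.09) and the prostaglandin synthase gene PTGS2 (0.76 ± 0.13) rose. From day 45 to 60, KLF4, BTG2, PTGS2 and ZFP36L1 fell and none rose (3.41% of all genes were called lower and 8.22% in either direction). From day 13 to 28 edgeR called none in any of the 4 network lists (1.04% of all genes were called). In that interval 8 of these 24 genes, 3 of 14 bZIP genes and NAB2 had an unadjusted p below 0.05, as did 2429 of 18937 genes tested.

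Of 14 other AP-1 and related bZIP genes tested, 5 rose and none fell from day 28 to 45 (13.4% of all genes higher and 27.7% in either direction), with FOSL2, a FOS relative (0.43 ± 0.10), ATF2 (0.11 ± 0.03), CREM (0.27 ± 0.07) and ATF4 (0.15 ± 0.05) first by p. From day 0 to 13, 1 of these 14 rose and 7 fell (17.3% of all genes higher and 17.1% lower), among them BATF3, a partner of JUN proteins in dendritic and T cells (-0.67 ± 0.10). NR4A3, the third NR4A gene, rose from day 28 to 45 by 0.50 ± 0.14, and the EGR corepressor genes NAB1 and NAB2 rose by 0.13 ± 0.05 and 0.12 ± 0.05 over the same interval. Of 14 genes for kinases and factors upstream, 4 rose from day 28 to 45 and none fell, again beside 13.4% and 27.7% of all genes, with ELK4 at 0.13 ± 0.04, SRF at 0.09 ± 0.03 and CREB1 at 0.14 ± 0.05 on the log2 scale. The median of these 14 was 0.05.

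Blood composition also moved over these days, and in whole blood fewer cells of a type and less RNA per cell cannot be told apart. From day 0 to 13, 3 of 6 monocyte markers fell and 1 rose (CD14 -1.15 ± 0.12, CD163 -1.60 ± 0.17 and MS4A7 0.93 ± 0.12), and their summed level went from a median of 1100 CPM (532 to 2900) to 735 CPM (514 to 1110). All 5 erythroid markers tested and all 6 platelet markers rose in that interval, with ALAS2 at 3.54 ± 0.37 and PF4 at 0.66 ± 0.11, and of 5 neutrophil markers tested S100A8 and S100A9 fell. Of 5 NK and cytotoxic cell markers tested, NCR1, KLRF1 and PRF1 fell and GZMB rose. In that interval 17.3% of all genes were called higher and 17.1% lower. Over the interval in which 8 members rose, days 28 to 45, none of 6 monocyte, 6 T cell, 6 B cell or 5 erythroid markers was called, 1 of 5 neutrophil markers, 2 of 5 NK and cytotoxic cell markers and 3 of 6 eosinophil and basophil markers rose, and 4 of 6 platelet markers fell. Of all genes, 13.4% were called higher there and 27.7% in either direction. The part of blood composition in the changes of the members was not tested.

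Over all libraries, which share steers and days, the members leaned to different markers. As a description, Spearman's rho with the mean scaled level of the monocyte markers was 0.620 for ATF3, 0.510 for JUN, 0.463 for FOS and 0.447 for JUNB, against 0.00399 for EGR1 and -0.426 for EGR3. This was not particular to monocytes. With the neutrophil markers rho was 0.525 for ATF3, 0.240 for JUN, 0.402 for FOS and 0.459 for JUNB. With the NK and cytotoxic cell markers it was 0.419, 0.415, 0.377 and 0.424 in the same order. EGR3 was the only member with a rho above 0.1 with the B cell markers (0.671). NR4A1 had its highest rho with the erythroid markers (0.450). The day means were left in, and both NR4A1 and the summed erythroid markers (5.99 CPM) had their lowest median on day 0. How much of that rho comes from the shared day course was not tested.

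The second question of the design was whether BRD and healthy steers differed. At no day was any of the 10 genes called between the labels in edgeR, DESeq2 or limma-voom. The shares of all genes called were 0.0158% on day 0, 0.00528% on days 28 and 60, and 0% on days 13 and 45, so few genes of any kind were called. Among the members only FOSB on day 0 had an unadjusted p below 0.05, while 1347 of 18937 genes had one on that day. BRD steers had a median FOSB of 4.65 CPM (1.97 to 9.81, n = 14) and healthy steers 3.28 CPM (1.28 to 5.41, n = 12). The ranges overlapped, the log2 difference was 0.65 ± 0.29, and the adjusted p was 0.633. Over all 5 days the estimates of the 10 genes lay between -0.38 (EGR1 on day 13) and 0.65 (FOSB on day 0).

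The intervals of these differences set how firmly this can be put. For JUNB the 95% intervals over the 5 days lay within -0.38 to 0.38 on the log2 scale, and for NR4A1 within -0.44 to 0.27. For FOSB the interval on day 0 ran from 0.08 to 1.22 and on day 45 from -0.92 to 0.22. Counts were also simulated at this design, with the same dispersion for all genes and no level shared by the libraries of a steer. They gave calls on 85 of 100 genes changed by a log2 value of 1.0 between BRD and healthy steers at day 0. Of 100 genes changed by 0.5, 10 were called, so at that dispersion the smaller difference was mostly not called. The members differ in spread, and the simulation does not give the detectable difference for each of them. Taking AAC and INR steers alone also gave no call on a member, but these still include the 4 BRD steers of pen 7.

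**Figure D3:**
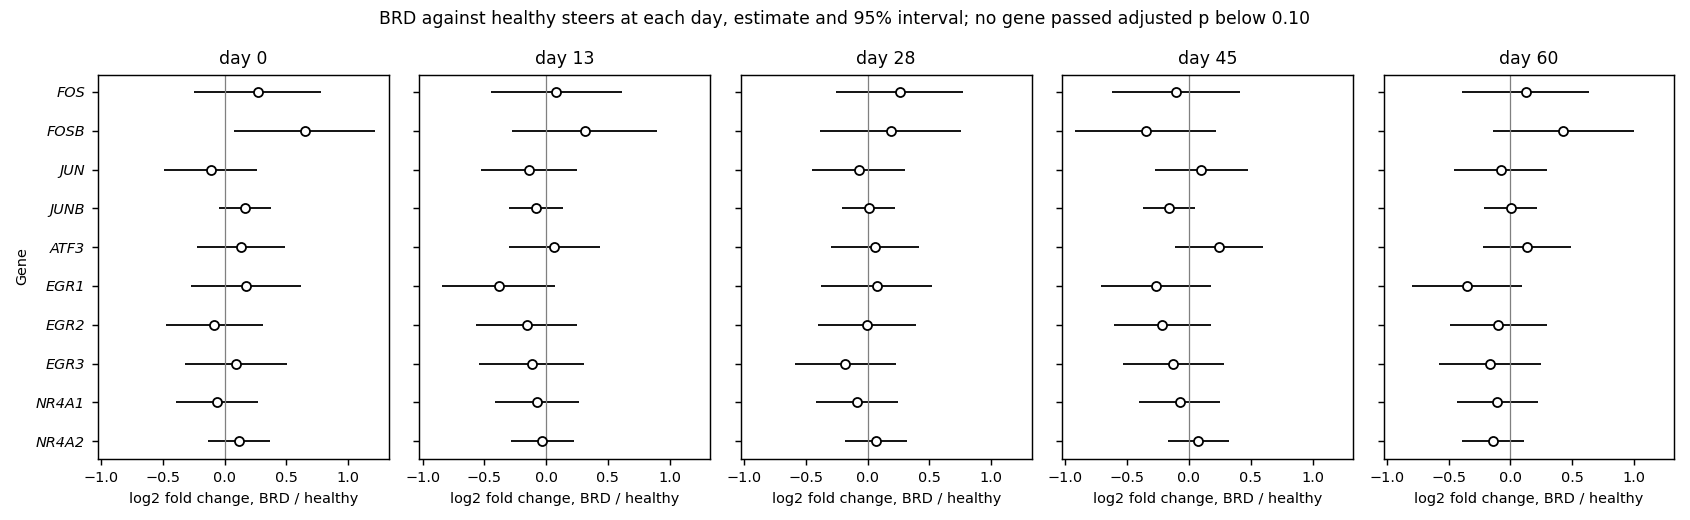
Log2 difference of BRD from healthy steers (points) with its 95% interval (bars) for the 10 genes on each of 5 days, averaged over the 3 treatments. The interval of FOSB on day 0, from 0.08 to 1.22, is the only one that leaves out zero, and no gene passed the adjusted threshold.

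The day changes themselves were also compared between the labels. None of 10 members was called in any of the 5 interaction tests by edgeR, DESeq2 or limma-voom, and 0% of all genes were called in edgeR. An unadjusted p below 0.05 was found for JUNB from day 0 to 13 (-0.28 ± 0.13, BRD minus healthy) and for FOSB from day 45 to 60 (0.80 ± 0.35), both with an adjusted p of 1. In these comparisons 641 and 505 of 18937 genes had such an unadjusted p. For NR4A1 the difference in the day 0 to 13 change was 0.01 ± 0.20, with a 95% interval from -0.38 to 0.40.

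Within treatments the difference between labels took different values for EGR3 and FOS. EGR3 on day 0 was lower in BRD than in healthy AAC steers by 1.01 ± 0.37 on the log2 scale (1.24, 3.15, 3.49 and 3.95 CPM against 4.55, 5.01, 6.70 and 7.55 CPM). In COMBO the difference was 1.06 ± 0.39 in the other direction (7.11, 11.2 and 17.7 CPM in BRD steers, 3.69, 4.49, 7.35 and 7.48 CPM in healthy steers), and in INR it was 0.23 ± 0.32. For FOS on day 0 the differences were 1.07 ± 0.46 in AAC, -0.04 ± 0.50 in COMBO and -0.24 ± 0.41 in INR. Whether these differ between treatments was not tested, and each rests on 3 to 7 steers a group.

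The third question was whether the mineral sources differed. Of 15 comparisons between treatments, 1 called a member: EGR3 was lower in AAC than in COMBO on day 0. On that day 0.396% of all genes were called lower in AAC and 0.565% in either direction. EGR3 lay between 1.24 and 7.55 CPM in 8 AAC steers (median 4.25), between 3.69 and 17.7 CPM in 7 COMBO steers (median 7.35) and between 4.08 and 14.9 CPM in 11 INR steers (median 6.37), so the groups overlapped. The log2 difference of AAC from COMBO was -0.98 ± 0.27, with an adjusted p of 0.0871 in edgeR. In that fit the libraries of 1 steer count as separate, although the steer took 81.6% of the variance of EGR3. The spread behind this p therefore rests on fewer independent values than there were libraries. The call was lost without the filter on low counts and without any 1 of 13 steers, and leaving out each steer in turn gave estimates between -1.12 and -0.79 with an adjusted p of up to 0.354. Without steer 21, which had the lowest value, the difference was -0.85 with an adjusted p of 0.245.

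The difference was there on day 0, at pen enrolment, and kept its sign. By then the COMBO steers had received a drench before shipment, and the AAC and COMBO steers began in different pens. The later days compared the same steers, whose order by EGR3 was kept between days (rho from 0.750 to 0.915). The later signs are therefore not separate support for the day 0 call. On days 13, 28, 45 and 60 EGR3 in AAC against COMBO stood at -0.72 ± 0.28, -0.65 ± 0.27, -0.79 ± 0.27 and -0.51 ± 0.27, none of them called, with adjusted p from 0.247 to 1. Against INR, which shares the AAC libraries with the comparison before, EGR3 in AAC stood at -0.75 ± 0.25, -0.54 ± 0.26, -0.57 ± 0.25, -0.34 ± 0.24 and -0.53 ± 0.24 from day 0 to 60, also with no call. On day 0 none of the 6 B cell markers was called between AAC and COMBO. Their log2 differences ran from -0.60 ± 0.31 for CD22 to -0.20 ± 0.14 for CD79A, all in the direction of EGR3, and their summed level had medians of 1570 CPM in AAC (881 to 3350), 1820 CPM in COMBO (753 to 3230) and 1980 CPM in INR (1280 to 3040). Other markers differed as well. The summed platelet markers had medians of 687 CPM in AAC (458 to 1600) and 1300 CPM in COMBO (466 to 2780). The monocyte markers went the other way, with 1220 CPM in AAC (683 to 2630) and 1050 CPM in COMBO (532 to 2900). The part of B cells or of other cells in the EGR3 difference was not tested.

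In the other 14 comparisons of treatments no member was called by edgeR, DESeq2 or limma-voom. The share of all genes called was 0.0422% on day 13 and 0.0106% on day 28 for AAC against INR, 0.00528% on day 60 for COMBO against INR, 0.929% on day 13 and 0.0317% on day 28 for AAC against COMBO, and 0% in the others. Unadjusted p below 0.05 occurred for ATF3 in AAC against INR on day 0 (0.42 ± 0.21), and on day 13 for FOSB, EGR1 and EGR2 in COMBO against INR (-0.77 ± 0.36, 0.68 ± 0.28 and -0.51 ± 0.25) and for FOSB, EGR1, EGR3 and NR4A1 in AAC against COMBO. Apart from these it occurred for EGR3 in AAC against INR on days 0, 13, 28 and 60 and in AAC against COMBO on days 28 and 45. In these comparisons 710 to 2532 of 18937 genes had such an unadjusted p, the most in AAC against COMBO on day 13. Of the members named, EGR1 on day 13 rested in part on COMBO steer 42, described next.

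The steer's share of the spread differed between the genes. Of the variance of log2 CPM over the libraries, the steer took 81.6% for EGR3, a share that 96.3% of all genes tested did not exceed, 61.3% for EGR2, 60.5% for EGR1, 54.7% for FOS and 53.9% for JUN, against a median of 42.1% for all genes. NR4A2 (46%) and ATF3 (45.8%) lay near that median, and FOSB (39.4%), JUNB (38.4%) and NR4A1 (24.3%) lay below it. The day took 50.7% for NR4A1, a share not exceeded by 99.9% of genes. It took 14.6% for ATF3 and 12.1% for JUN, against a median of 5.66%. Both shares are of the same total, so the large day share of NR4A1 leaves less for the steer. The steer share also holds differences between treatments, labels and pens, because each steer belongs to 1 of each. The order of steers by EGR3 was kept between days, with Spearman's rho from 0.750 to 0.915 over the 10 pairs of days, while for NR4A1 it lay between -0.0783 and 0.543.

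EGR3 was highest in BRD COMBO steer 54 on days 0, 28 and 45 (17.7, 13.5 and 16.8 CPM) and lowest in BRD AAC steer 21 on every day but day 45. Steer 54 also gave 11.4 and 12 CPM on days 13 and 60. Steer 21 gave 1.24, 1.99, 2.16, 3.57 and 3.03 CPM from day 0 to 60, so that its highest value lay below the lowest value of steer 54. The same steer 21 had the highest mean level of the 26 for FOS, JUN, JUNB, NR4A1 and ATF3. Its FOS values were 99.4, 40.5, 84.7, 65.4 and 65.1 CPM, and its NR4A1 values were 18.7, 31.3, 28.7, 36.8 and 26.2 CPM. The rise of NR4A1 from day 0 to 13 was at least 0.79 on the log2 scale whichever steer was left out.

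EGR1 had 1 steer apart. Healthy COMBO steer 42 gave 8.75 CPM on day 0, within the range of the herd, then 56, 17, 39.1 and 37.1 CPM on days 13, 28, 45 and 60, and it was the highest of all steers on days 13, 45 and 60. The next steers by mean level, INR steer 17 and COMBO steer 6, averaged 14.7 and 12.5 CPM over the days against 31.6 CPM for steer 42. Within COMBO, the BRD minus healthy estimate of EGR1 on day 13 was -1.66 ± 0.43, with steer 42 and steer 3 (24.3 CPM) in the healthy group. Without steer 42, EGR1 in COMBO against INR on day 13 went from 0.68 to 0.25 and its rise from day 28 to 45 from 0.27 to 0.23, which was then no longer called (adjusted p = 0.123).

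**Figure D4:**
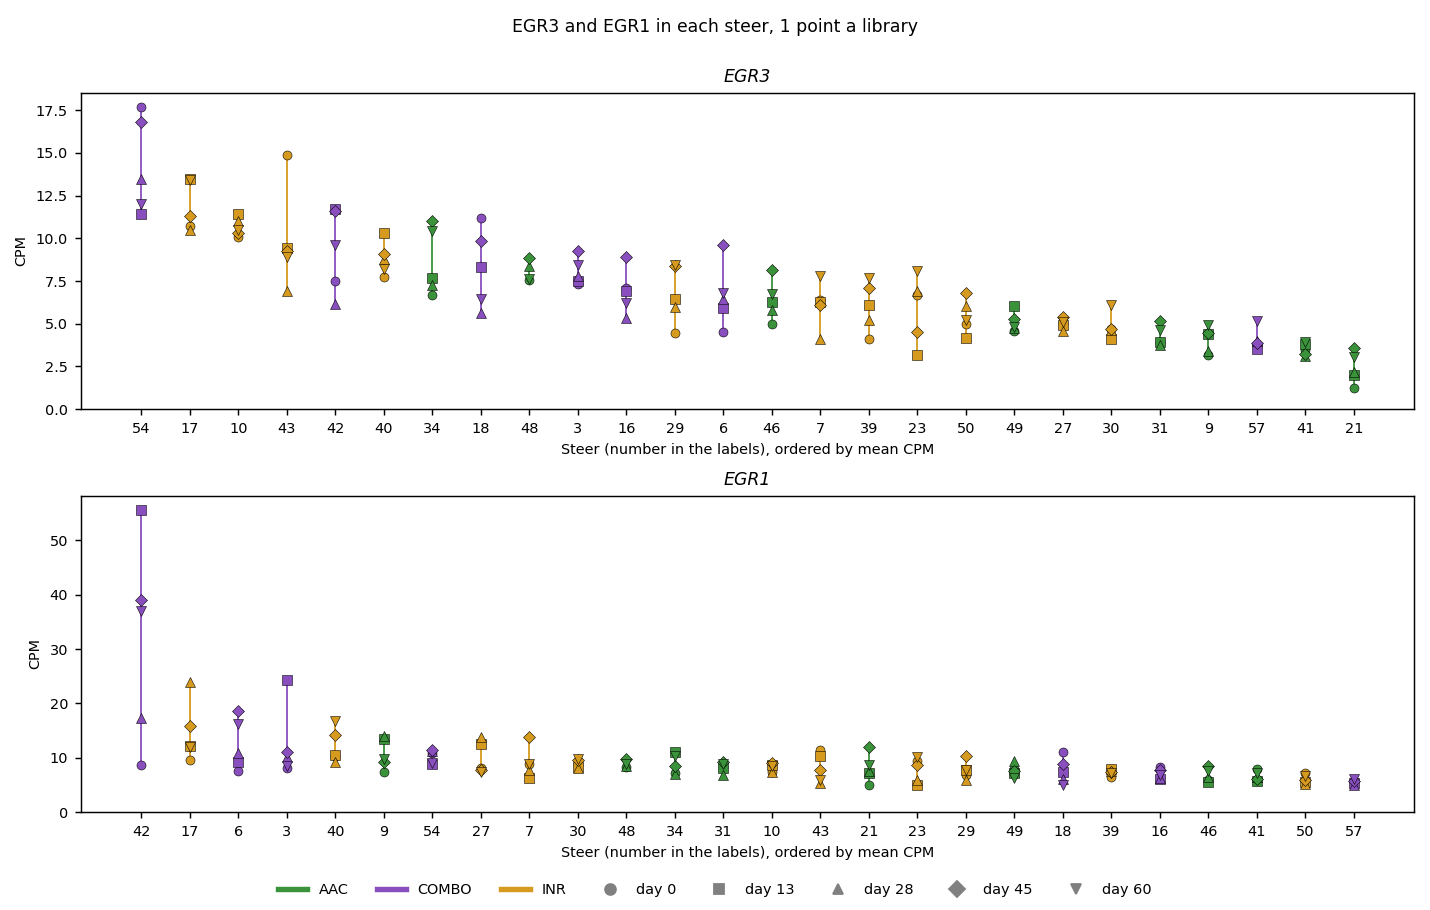
CPM of EGR3 (top) and EGR1 (bottom) in each of the 26 steers, ordered by mean level, with 1 marker a library, shaped by day and coloured by treatment. For EGR3 the 5 values of a steer lie close together and the steers spread from 1.24 to 17.7 CPM, whereas for EGR1 most steers lie near 8 CPM and steer 42 reaches 56 CPM on day 13.

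The members fell into loose sets when compared over libraries, given here as a description over all libraries, which share steers. After the day means were removed, 37 of the 45 pairs had a Spearman's rho above 0 and 7 above 0.5, with a median of 0.263. The closest pair was JUN and ATF3 (0.743), followed by JUN and NR4A1 and by FOS and JUNB (both 0.64). EGR1 went with FOS (0.51) and EGR3 (0.45), while EGR3 had a rho of -0.30 with JUN and with ATF3. Outside the 10 genes and the network lists, the 5 genes most like the mean scaled level of the members were IRF2BPL (rho 0.669), TNFSF9 (0.621), BTG3 (0.619), CDC42EP4 (0.619) and IER5L (0.609). Chosen after the values were seen, and also with the day means left in, the gene nearest to NR4A1 alone was EBI3, an interleukin subunit gene (0.866). The gene nearest to EGR3 alone was FCMR, the IgM Fc receptor gene (0.815).

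**Figure D5:**
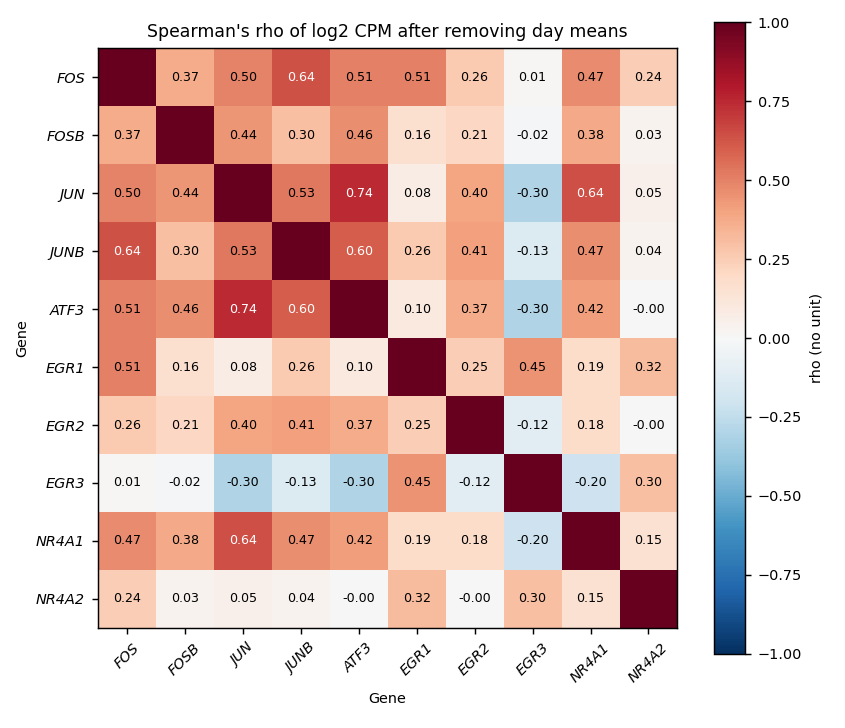
Spearman's rho between the 10 genes over all libraries, from log2 CPM with the day means removed, with red for positive and blue for negative values. FOS, JUN, JUNB and ATF3 form the red block, with JUN and ATF3 at 0.74, and the EGR3 row holds most of the blue cells.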

How the data were processed

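Blood was collected in Tempus tubes, and stranded poly(A) libraries were read as 150-base pairs on a NovaSeq. As the authors state, reads were trimmed with Trimmomatic 0.39, mapped to ARS-UCD1.3 with HISAT2 (2.1.1 in the submitters' processing notes, while the methods name another version), assembled with StringTie 2.2.0 and turned into gene counts by prepDE, which derives them from coverage. The deposited values are whole-number counts per gene, not normalized, with 1 column a library. No column was left without a sample.

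Here, symbols were matched exactly to the row names, counts were scaled by TMM factors in edgeR 4.0.16 (R 4.3.3), genes were kept by filterByExpr over the 30 combinations of treatment, label and day (18937 of 32395), and a common dispersion was used, as in the study's pairwise tests. Day changes and their difference between labels came from 1 fit with the steer as a block (the replicate block, biological coefficient of variation 27.8%). The pairing comes from the steer number in the labels, and the correlation within steers that limma-voom estimated was 0.320. Comparisons at a single day came from a fit with 1 mean for each combination (39.0%). P-values were adjusted by Benjamini-Hochberg over all genes tested, with a threshold of 0.10. For day changes the p-values measure how far the changes of steers spread around those of their group. At a single day they measure the spread between steers within a combination, pooled over the 30 combinations. In that pooling the libraries of 1 steer count as separate. SE and 95% intervals came from the same fits. log2 CPM used a prior count of 2.

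Alternatives were no block, limma-voom (3.58.1) with the steer as a random effect, RLE factors, DESeq2 (1.42.0), no filter, trended dispersion, a threshold of 0.05, a single day term, AAC and INR alone for the label, removal of 2 libraries, and leaving out each steer with the dispersion held and a Wald form of the test, which gave the same member calls as the quasi-likelihood test on all steers. On simulated counts for 18937 genes, 86 of 100 genes changed by log2 0.5 were recovered from day 0 to 13. Of those changed by 1.0, 100 of 100 were recovered, with 22 false calls. The counts had the same dispersion for all genes and the same change in every steer. They do not give the detectable day change for each member.

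All 10 members are named. In each of 4 network lists, the 4 genes of smallest p are named where any passed, except for a few genes that are not reported here, and 5 genes are named by rho with the mean of the members. The members and lists were chosen with earlier results of these data known. Gene coordinates, promoters and proteins were not analysed here.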

Additional observations from a re-analysis of the deposited data

Results flagged for a closer look

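Over the 10 genes and the groups of 4 or 7 steers of 1 treatment, label and day, the highest or lowest steer stood apart by Dixon's criterion in 12 of 240 sets of values, as many as chance alone would flag at about 1 in 20. They came from 11 libraries, and their causes were not tested.

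BRD AAC steer 21 gave 4 of them: JUN at 232 CPM and NR4A1 at 36.8 CPM on day 45 and ATF3 at 14.4 CPM on day 60 were above the group, and EGR3 at 1.99 CPM on day 13 was below it. Healthy INR steer 7 gave 3, with FOS at 89.5 CPM on day 45 and NR4A2 at 4.91 CPM on day 13 above its group and FOSB at 2.08 CPM on day 0 below it. In healthy COMBO steers, FOS was low in steer 57 on day 28 at 14 CPM, NR4A1 was high in steer 6 on day 13 at 29 CPM, and ATF3 was low in steer 3 on day 0 at 5.32 CPM. FOSB was high in healthy AAC steer 48 on day 0 at 5.41 CPM and low in BRD INR steer 29 on day 13 at 0.257 CPM.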

How the results depend on the processing

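No value of a member changed sign among called results. With no replicate block the members called fell to 1 from day 0 to 13, 3 from day 28 to 45, 0 from day 45 to 60 and 2 from day 0 to 60. DESeq2 called 1 from day 13 to 28. From day 45 to 60 RLE factors left 2, no filter 1 and a threshold of 0.05 left 0. That threshold left 3 from day 0 to 60, and AAC against COMBO on day 0 had 0 with no filter and 0 at 0.05. The cause was not tested, except that a lower threshold calls fewer genes by construction. As each steer was left out, the members called ran from 0 to 1 from day 13 to 28, 6 to 8 from day 28 to 45, 0 to 4 from day 45 to 60, 3 to 6 from day 0 to 60 and 0 to 1 for AAC against COMBO on day 0. Over all genes, the alternatives other than leaving out a steer called 3995 to 6868 from day 0 to 13 (main value 6507), 31 to 533 from day 13 to 28 (196), 2601 to 5516 from day 28 to 45 (5237), 314 to 1879 from day 45 to 60 (1556), 3382 to 6318 from day 0 to 60 (5812) and 21 to 415 for AAC against COMBO on day 0.

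From day 45 to 60 the call on JUNB was lost without steer 3, 6, 7, 9, 10, 16, 18, 21, 23, 30, 34, 39, 41, 46 or 48 (adjusted p up to 0.262), on EGR2 without 3, 6, 7, 9, 10, 18, 21, 27, 29, 34, 46, 48, 49, 50, 54 or 57 (0.187), on ATF3 without 3, 9, 10, 18, 23, 30, 31, 34, 42, 46, 48 or 54 (0.185) and on NR4A1 without 3, 18, 21, 30, 34 or 46 (0.161). From day 0 to 60 FOSB was lost without 3, 10, 16, 21, 30 or 48 (0.218) and EGR2 without 3, 6, 7, 9, 10, 16, 21, 27, 43, 49, 50, 54 or 57 (0.306). EGR1 from day 28 to 45 was lost without 6, 7, 16, 18, 21, 29, 31, 34, 42, 46 or 48 (0.161), and EGR3 in AAC against COMBO on day 0 without 3, 6, 9, 18, 21, 31, 34, 39, 42, 46, 49, 50 or 54 (0.354). The lowest count of a member was 11, for FOSB, and the effect of depth on the calls was not tested.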
